A study of Homo sapiens with 6 samples.

Results

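Hepatocytes supply most of the protein of blood plasma, and 47 genes for such proteins were followed here in HepG2 cells. They were taken as a named list of carrier proteins, cystatin family proteins and vitronectin, protease inhibitors, coagulation factors, and acute phase proteins with LEAP2. All 47 were found among the 60240 genes of the expression table. The list was not chosen by a threshold on measured values, but earlier results of these data were known when it was chosen. HepG2 is an established human line grown from a single liver tumour, so that all libraries share 1 genome and 1 transformed background. The control group was 3 libraries of HepG2 cells labelled as controls, and the GDF11 group was 3 libraries of the same cells given recombinant GDF11, a ligand of the TGF-beta family, at 100 ng/ml for 24 h. The labels call the libraries of a group biological replicates. RNA was measured in bulk, so fewer cells making a transcript and less of it per cell cannot be told apart.

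The liver releases these proteins through the secretory pathway. Carriers such as albumin, transthyretin and transferrin move hormones, lipids, vitamins and metals, and coagulation factors circulate as inactive precursors that cut each other in a cascade. Serine protease inhibitors (serpins), inter-alpha-trypsin inhibitor chains and alpha-2-macroglobulin restrain these and other proteases. Acute phase proteins are made in larger or smaller amounts during inflammation, largely under interleukin-6 and interleukin-1 signalling. In hepatocytes the promoters of many of these genes are bound by HNF1, HNF4, C/EBP and FOXA factors.

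Values are variance-stabilised log2 values, a scale on which a gene with no reads stands at 5.52, its lowest value, and on which a true log2 change is compressed at low values: 0.696 of it is kept at a value of 8, and 0.978 at 12. Normalised reads calculated back from these values totalled 44621162 to 59440376 per library. The RNA integrity number was 9.6 to 9.9 in controls and 9.4 to 9.6 with GDF11. Control replicate 3 stood nearer to the GDF11 group than the mean of controls 1 and 2 did for many members. On a line from that mean (position 0) to the GDF11 mean (position 1), the median position of control replicate 3 was 0.308 over 25 members. These were the tested members whose line had ends at least 0.5 apart. Position 0 and this choice used the same values of controls 1 and 2, which can move the median toward GDF11. All 10 hepatic marker genes were measured and 7 of them fell with GDF11, 4 of the 10 being members here. Of the leukocyte markers PTPRC, CD3E and MARCO stood at the lowest value in all 6 libraries, and of 8 such genes 4 were measured and 1, LYZ, fell. Their summed reads were 68881 to 80413 in controls and 32545 to 34215 with GDF11. Most of that sum was LYZ, at means of 16.09 and 14.90, the next highest, CD68, being at 11.53 and 11.49. Of 10 stellate cell and fibroblast markers 5 were measured, 3 rose and 1 fell, and their summed reads were 7801 to 12058 against 18502 to 22502, while DCN, LUM, COL1A2, COL3A1 and VIM stayed below the filter on low values. Of 8 cholangiocyte markers 6 were measured, KRT7 and KRT19 rose and SOX9 and ANXA4 fell, and their sums were 125534 to 173254 against 180259 to 185313. Of 9 endothelial markers 4 were measured, 1 rose and 1 fell, and their sums were 97.5 to 153 against 102 to 117. The part of these differences in the results on the members was not tested.

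Most of the plasma protein genes that moved were lower with GDF11. Of the 42 members with enough signal to be tested, 19 fell and 2 rose at an adjusted p under 0.05 (limma), and 21 did not pass. Over all 18723 genes tested, 10.8% fell and 11.7% rose, against 45.2% of the tested members that fell. The median difference between GDF11 and control was -0.43 over the 42 members and 0.0056 over all tested genes, and 35 members had a negative difference. The 3 GDF11 values lay below all 3 control values for 22 members, against 19.6% of all tested genes, and above them for 3 members, against 20.9% of all. When the integrity number of the RNA entered the fit as a covariate, 12 members (28.6%) fell, against 3.85% of all tested genes. Without GDF11 replicate 3, 12 members (27.9%) fell, against 5.06% of all tested genes. The 2 members that rose, VTN and SERPINA5, both lost the call when control replicate 1 or any single GDF11 library was left out, so that the count of risen members was then 0.

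**Figure D1:**
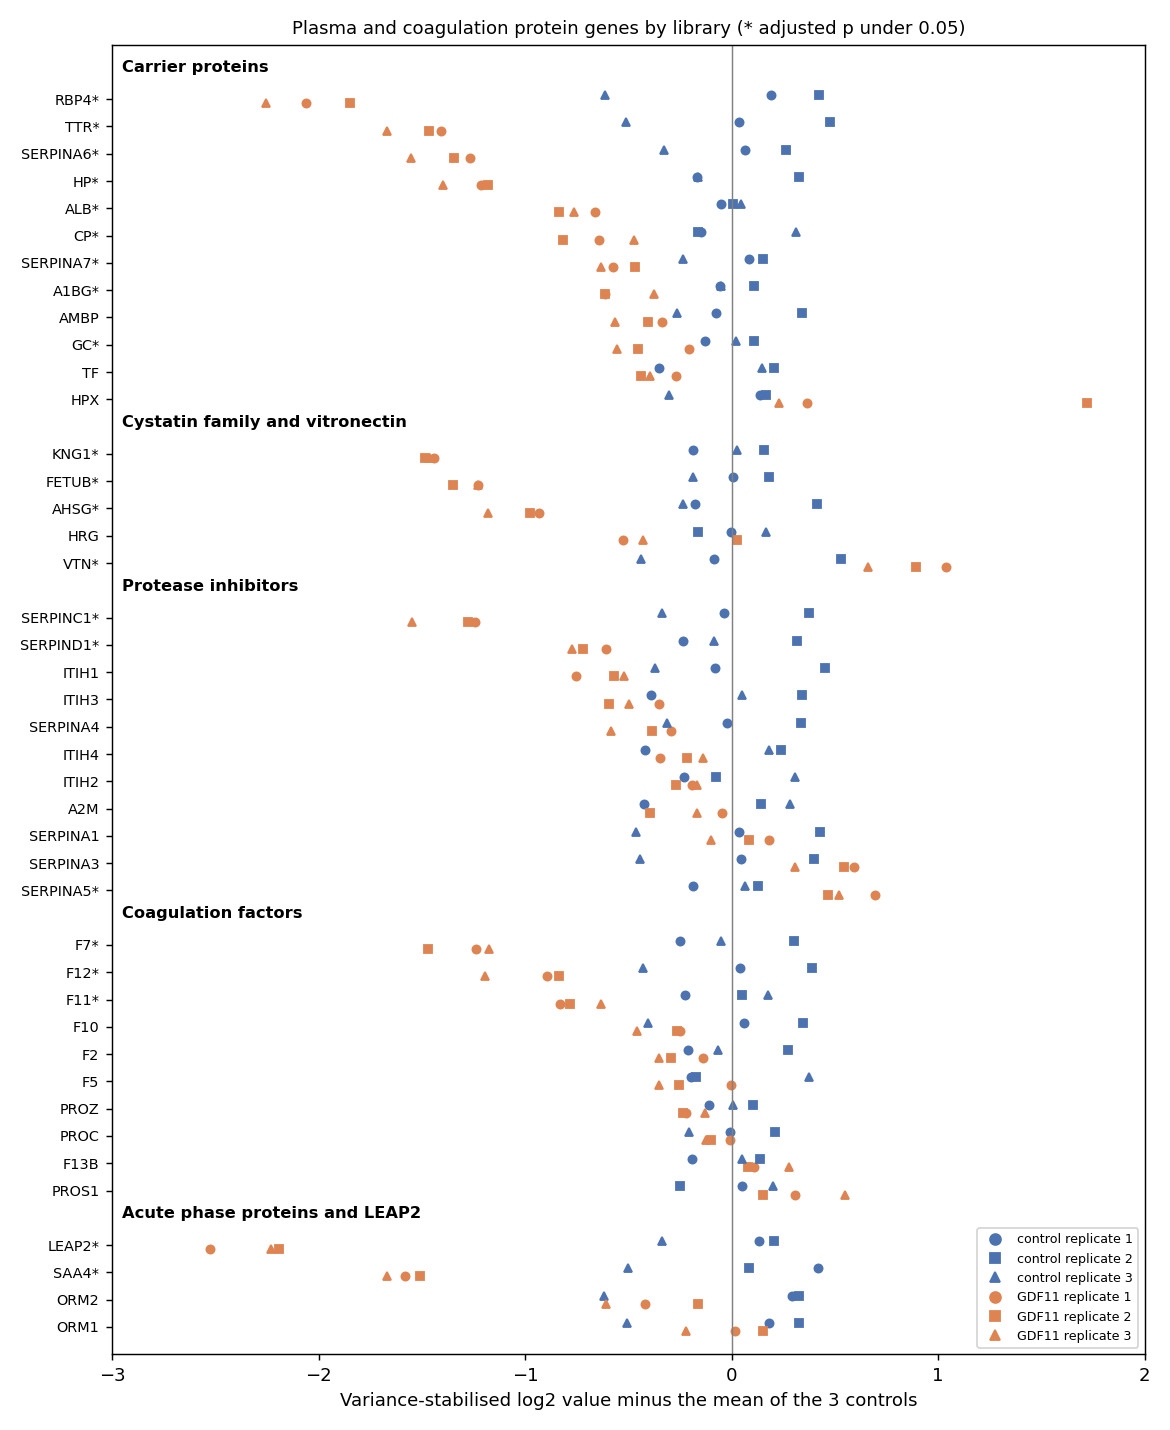
Each tested member's value in every library, as the variance-stabilised log2 value minus the mean of the 3 controls (x axis), grouped by role; blue marks are controls, orange marks are GDF11 libraries, and an asterisk marks an adjusted p under 0.05. Orange marks lie left of all blue marks for 22 members and right of them for 3 (VTN, SERPINA5 and HPX).

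The RefSeq promoter table (GRCh38.p14) gave 44 windows for 36 of the members, each of 300 bases from 250 before to 50 after a transcription start. The other 11 had no window there. The windows shown are those of the member with the largest decrease, LEAP2 (chr5:132873418-132873717, + strand), of further members that fell, SAA4 (chr11:18236753-18237052, - strand), SERPINA6 (chr14:94323287-94323586, - strand), AHSG (chr3:186612810-186613109, + strand), KNG1 (chr3:186717109-186717408, + strand) and ALB (chr4:73404037-73404336, + strand), of VTN (chr17:28370258-28370557, - strand), which rose, and of the most abundant member, SERPINA1 (chr14:94388553-94388852, - strand), which did not pass the test. Each is written 5′ to 3′ on the strand of the gene, and capitals mark letters of HNF1 (GTTAATNNT), HNF4 (CAAAGTCCA or CAAAGGTCA), C/EBP (TTGCNNAA) or FOXA (TGTTTAC or TGTTTGC), searched on both strands.
LEAP2: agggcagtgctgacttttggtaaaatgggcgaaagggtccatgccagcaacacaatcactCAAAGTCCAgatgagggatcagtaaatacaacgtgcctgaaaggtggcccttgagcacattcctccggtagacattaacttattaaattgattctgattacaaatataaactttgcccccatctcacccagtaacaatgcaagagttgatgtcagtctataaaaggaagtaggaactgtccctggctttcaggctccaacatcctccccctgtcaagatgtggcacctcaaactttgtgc
SAA4: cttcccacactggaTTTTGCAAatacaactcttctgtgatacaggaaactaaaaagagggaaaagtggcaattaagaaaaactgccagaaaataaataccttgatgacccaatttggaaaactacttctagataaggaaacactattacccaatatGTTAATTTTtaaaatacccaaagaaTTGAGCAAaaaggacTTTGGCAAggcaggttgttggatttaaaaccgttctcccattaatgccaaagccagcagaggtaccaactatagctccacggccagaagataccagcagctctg
SERPINA6: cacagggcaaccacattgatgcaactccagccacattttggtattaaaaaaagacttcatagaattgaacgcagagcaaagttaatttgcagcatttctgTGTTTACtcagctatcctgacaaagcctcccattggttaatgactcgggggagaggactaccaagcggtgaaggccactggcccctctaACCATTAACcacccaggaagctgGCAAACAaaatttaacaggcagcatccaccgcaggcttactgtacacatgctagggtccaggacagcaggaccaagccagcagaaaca
AHSG: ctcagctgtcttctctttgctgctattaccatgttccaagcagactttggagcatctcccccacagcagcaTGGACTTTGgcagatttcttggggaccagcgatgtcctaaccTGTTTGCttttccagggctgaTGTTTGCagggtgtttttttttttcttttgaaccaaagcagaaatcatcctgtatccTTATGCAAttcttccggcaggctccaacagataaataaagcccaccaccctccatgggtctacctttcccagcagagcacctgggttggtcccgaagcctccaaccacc
KNG1: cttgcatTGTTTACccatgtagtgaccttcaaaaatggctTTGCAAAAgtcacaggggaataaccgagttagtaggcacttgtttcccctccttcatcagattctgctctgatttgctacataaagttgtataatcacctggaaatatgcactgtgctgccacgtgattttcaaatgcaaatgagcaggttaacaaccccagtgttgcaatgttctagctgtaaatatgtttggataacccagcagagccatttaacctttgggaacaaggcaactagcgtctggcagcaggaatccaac
ALB: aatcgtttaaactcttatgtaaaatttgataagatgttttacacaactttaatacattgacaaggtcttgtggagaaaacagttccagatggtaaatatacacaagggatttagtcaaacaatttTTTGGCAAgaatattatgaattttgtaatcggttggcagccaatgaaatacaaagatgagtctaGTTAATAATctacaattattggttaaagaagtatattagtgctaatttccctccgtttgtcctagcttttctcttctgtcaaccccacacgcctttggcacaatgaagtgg
VTN: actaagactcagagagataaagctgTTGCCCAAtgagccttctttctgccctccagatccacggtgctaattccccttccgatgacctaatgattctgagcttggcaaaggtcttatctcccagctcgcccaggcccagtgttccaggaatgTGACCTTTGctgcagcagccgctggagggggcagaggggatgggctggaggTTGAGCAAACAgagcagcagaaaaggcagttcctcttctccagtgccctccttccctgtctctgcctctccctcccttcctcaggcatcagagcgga
SERPINA1: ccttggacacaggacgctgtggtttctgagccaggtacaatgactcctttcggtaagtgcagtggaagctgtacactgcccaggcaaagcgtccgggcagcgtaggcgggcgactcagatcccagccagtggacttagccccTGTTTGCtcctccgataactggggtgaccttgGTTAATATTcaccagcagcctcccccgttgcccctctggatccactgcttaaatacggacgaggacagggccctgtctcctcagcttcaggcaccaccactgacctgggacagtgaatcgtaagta
In VTN the last capital run holds overlapping C/EBP and FOXA letters. Every window shown has marked letters, but only 23 of the 36 members with a window had any. F7, F11, F12, A1BG and SERPIND1, which also fell, had none in their windows. HNF1 letters were in 18.2% of the member windows and 2.35% of all 35116 windows of the table, and HNF4 letters in 13.6% and 0.79%. C/EBP letters were in 25.0% against 10.46%, and FOXA letters in 18.2% against 7.17%. The SMAD letters CAGAC, the core to which the DNA-binding SMADs of TGF-beta signalling are known to bind, were in 47.7% of member windows and 45.26% of all windows, and STAT3 letters (TTCNNNGAA) in 22.7% and 7.66%. Of the 14 members with a window that fell, 4 had HNF1, 2 HNF4, 7 C/EBP, 3 FOXA and 6 SMAD letters. Of the 20 tested members with a window that did not fall, 4 had HNF1, 4 HNF4, 4 C/EBP, 5 FOXA and 13 SMAD letters. VTN carried HNF4, C/EBP and FOXA letters like AHSG. The SERPINA1 window shown carried HNF1 and FOXA letters like SERPINA6, and the other SERPINA1 window of the table (chr14:94390586-94390885) held none of the 4 marked kinds. A match is a description of letters, not a binding site.

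Among the 12 carrier proteins 9 fell, none rose and 3 did not pass, with a median difference of -0.60. Of all tested genes 10.8% fell and 11.7% rose. RBP4, which carries retinol in plasma, stood at 15.48, 15.71 and 14.67 in controls 1 to 3 and at 13.23, 13.44 and 13.03 in GDF11 replicates 1 to 3. The groups did not overlap. The means were 15.29 ± 0.55 and 13.23 ± 0.21 (SD, n = 3 each), a difference of -2.05 ± 0.27 (SE, adjusted p = 0.000858), with 4.34 times as many reads in controls. TTR, the thyroid hormone carrier that binds RBP4 in blood, had 12.44, 12.88 and 11.89 in controls and 10.995, 10.94 and 10.73 with GDF11, a difference of -1.52 ± 0.24 (SE, adjusted p = 0.00247). When RNA integrity was a covariate the differences were -1.31 for RBP4 (adjusted p = 0.0138) and -0.81 for TTR (adjusted p = 0.038), both still called. In both genes control replicate 3 was the lowest control but still above every GDF11 library. SERPINA6, corticosteroid-binding globulin, read 13.77, 13.97 and 13.38 against 12.44, 12.36 and 12.16, a difference of -1.39 ± 0.19 (adjusted p = 0.00108), or -0.90 with that covariate (adjusted p = 0.0115). For HP, the haemoglobin scavenger haptoglobin, the values were 13.54, 14.04 and 13.55 against 12.49, 12.53 and 12.31, a difference of -1.26 ± 0.18 (adjusted p = 0.00142). HPR is a near-identical copy of HP, so reads may be split between them, and HPR also fell (-1.71 ± 0.18, adjusted p = 0.000332).

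ALB, the main protein of plasma, stood at 17.87, 17.92 and 17.96 in controls and at 17.26, 17.08 and 17.15 with GDF11. Its groups were narrow and apart, with a difference of -0.75 ± 0.17 (SE, adjusted p = 0.0147) and 1.68 times as many reads in controls. After quantile normalization the ALB difference was -0.29 and was not called (adjusted p = 0.325). The copper carrier ceruloplasmin, CP, had 14.28, 14.27 and 14.74 in controls and 13.79, 13.61 and 13.96 with GDF11 (-0.64 ± 0.19, adjusted p = 0.0372). Thyroxine-binding globulin, SERPINA7, had 14.34, 14.41 and 14.03 against 13.68, 13.79 and 13.63 (-0.56 ± 0.16, adjusted p = 0.0377). Neither gene's groups overlapped, although the gaps were smaller than for TTR or RBP4. The plasma glycoprotein A1BG had 7.64, 7.81 and 7.64 against 7.08, 7.08 and 7.32 (-0.53 ± 0.13, adjusted p = 0.0206). GC, the vitamin D-binding protein, was close to the lowest value at 6.39, 6.63 and 6.54 against 6.31, 6.07 and 5.96, with a mean of 23.1 normalised reads in controls and 8.37 with GDF11 (-0.41 ± 0.12, adjusted p = 0.0417). When RNA integrity was a covariate, CP differed by -1.03 (adjusted p = 0.0159) and kept its call. ALB (-0.74, adjusted p = 0.05085), A1BG (-0.54, adjusted p = 0.155), SERPINA7 (-0.29, adjusted p = 0.376) and GC (-0.24, adjusted p = 0.507) were then not called. Each of these 5 calls was lost in some fits with a library left out. ALB lost its call when any GDF11 library was left out (adjusted p 0.0734 to 0.0897), CP (0.0515 to 0.146) and SERPINA7 (0.0993 to 0.15) when any library other than control replicate 3 was, A1BG without control replicates 1 or 2 or GDF11 replicates 1 or 2 (0.0501 to 0.095), and GC without control replicates 1 or 2 or GDF11 replicates 2 or 3 (0.0594 to 0.154).

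Of the carriers, 3 did not pass. TF, the iron carrier transferrin, stood at 18.02, 18.58 and 18.52 in controls and 18.11, 17.94 and 17.98 with GDF11, overlapping groups with a difference of -0.37 ± 0.22 (SE, adjusted p = 0.248). AMBP, the precursor of alpha-1-microglobulin and bikunin, had a difference of -0.44 ± 0.20 (adjusted p = 0.155), which was called without control replicate 3 (-0.57, adjusted p = 0.0215). HPX, the haem carrier hemopexin, was the carrier with a positive difference: 8.46, 8.49 and 8.02 in controls against 8.69, 10.04 and 8.55 with GDF11 (0.77 ± 0.36, adjusted p = 0.153). GDF11 replicate 2 alone stood far above the rest, and without it the HPX difference was 0.30.

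The cystatin family members lie side by side on chromosome 3 and 3 of the 4 fell, against 10.8% of all tested genes. KNG1, the kininogen from which bradykinin is cut, was at 8.97, 9.31 and 9.18 in controls and 7.72, 7.67 and 7.69 with GDF11. That is a difference of -1.46 ± 0.15 (SE, adjusted p = 0.000233) and 3.87 times as many reads in controls, with a spread of only 0.022 (SD, n = 3) among GDF11 libraries. FETUB, fetuin-B, was at 7.88, 8.05 and 7.69 against 6.65, 6.52 and 6.64, a difference of -1.27 ± 0.14 (adjusted p = 0.00032). Its compressed log2 difference went with 5.63 times as many reads in controls, a mean of 152.9 against 27.2. AHSG, fetuin-A, a mineral-binding glycoprotein that was the second most abundant member per coding length in controls, had 17.58, 18.18 and 17.53 against 16.83, 16.79 and 16.58. Its difference of -1.03 ± 0.22 (adjusted p = 0.0113) lost the call without GDF11 replicate 3 (-0.96, adjusted p = 0.0636) and when RNA integrity was a covariate (-0.58, adjusted p = 0.18). HRG, histidine-rich glycoprotein, was near the lowest value at 5.86 to 6.55 over the 6 libraries (-0.31 ± 0.16, adjusted p = 0.182), and was called lower without GDF11 replicate 2 (-0.48, adjusted p = 0.0419).

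VTN, vitronectin, an adhesion protein of plasma and matrix, went the other way. It stood at 13.55, 14.17 and 13.20 in controls and at 14.68, 14.53 and 14.30 with GDF11. Every GDF11 library was above every control, with means of 13.64 ± 0.49 and 14.50 ± 0.19 (SD, n = 3 each), a difference of 0.86 ± 0.25 (SE, adjusted p = 0.0357) and a ratio of mean reads of 1.76. The call ended when control replicate 1 or any GDF11 library was left out (adjusted p 0.0641 to 0.126), while the difference stayed between 0.78 and 0.97 in those fits. When RNA integrity was a covariate it was 1.58 (adjusted p = 0.00297).

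Of 11 protease inhibitors 2 fell, 1 rose and 8 did not pass, with a median difference of -0.23. These counts were near the shares over all tested genes, of which 10.8% fell and 11.7% rose. SERPINC1, antithrombin, the main inhibitor of thrombin and factor Xa, was at 12.41, 12.82 and 12.11 in controls and 11.20, 11.17 and 10.90 with GDF11. The groups were apart by more than their spread, with a difference of -1.36 ± 0.20 (SE, adjusted p = 0.0018) and 2.67 times as many reads in controls, or -0.81 when RNA integrity was a covariate (adjusted p = 0.0269). SERPIND1, heparin cofactor II, which also inhibits thrombin, had 14.22, 14.77 and 14.37 against 13.85, 13.74 and 13.68, groups that were apart by a difference of -0.70 ± 0.18 (adjusted p = 0.0236). This call was lost when control replicate 2 or any GDF11 library was left out (adjusted p 0.0595 to 0.0995), and when RNA integrity was a covariate (-0.44, adjusted p = 0.278). SERPINA5, the protein C inhibitor, stood at 14.49, 14.81 and 14.75 in controls and 15.38, 15.15 and 15.20 with GDF11, and so rose by 0.56 ± 0.16 (SE, adjusted p = 0.0394). Of the 6 fits with a library left out, it kept the call only in that without control replicate 3, and in the others had an adjusted p of 0.0535 to 0.182. With RNA integrity as a covariate the SERPINA5 difference was 0.63 (adjusted p = 0.106) and was not called.

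SERPINA1, alpha-1-antitrypsin, the inhibitor of neutrophil elastase, was the most abundant member and stood at 19.16, 19.56 and 18.67 in controls and 19.31, 19.21 and 19.03 with GDF11. The groups overlapped and the difference was 0.05 ± 0.26 (SE, adjusted p = 0.899), with a value of -0.18 without control replicate 3. SERPINA3, alpha-1-antichymotrypsin, had 16.82, 17.17 and 16.32 in controls and 17.36, 17.31 and 17.07 with GDF11 (0.48 ± 0.24, adjusted p = 0.176). Control replicate 2 lay between the GDF11 libraries, and SERPINA3 was called higher after quantile normalization (0.93, adjusted p = 0.000434) and when RNA integrity was a covariate (1.11, adjusted p = 0.0116). A2M, the broad protease trap alpha-2-macroglobulin, had 17.20, 17.76 and 17.90 in controls and 17.57, 17.23 and 17.45 with GDF11 (-0.20 ± 0.23, adjusted p = 0.559). The inter-alpha-trypsin heavy chains ITIH1, ITIH2, ITIH3 and ITIH4, which are joined to bikunin, had differences of -0.61, -0.21, -0.48 and -0.23 and none passed (adjusted p 0.0699 to 0.447). Kallistatin, SERPINA4, differed by -0.42 (adjusted p = 0.142). Without control replicate 3, ITIH1 (-0.80, adjusted p = 0.00933) and SERPINA4 (-0.58, adjusted p = 0.0155) were called lower.

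Of 11 coagulation factors 10 were tested, 3 fell and none rose, with a median difference of -0.23. Over all tested genes 10.8% fell and 11.7% rose. F7, the factor that tissue factor activates to start coagulation, stood at 9.96, 10.52 and 10.17 in controls and 8.98, 8.74 and 9.04 with GDF11. All GDF11 libraries were lower, with a difference of -1.30 ± 0.18 (SE, adjusted p = 0.00135) and 2.79 times as many reads in controls. F12, the contact factor, was at 9.22, 9.57 and 8.75 against 8.29, 8.35 and 7.99, a difference of -0.97 ± 0.22 (adjusted p = 0.0138). F11, which contact activation acts on next, was at 9.99, 10.27 and 10.40 against 9.39, 9.44 and 9.58, a difference of -0.75 ± 0.16 (adjusted p = 0.0106). F12 lost its call without control replicate 1 (adjusted p = 0.057) or GDF11 replicate 3 (0.0575), and F11 without GDF11 replicate 1 (0.0569). When RNA integrity was a covariate, the F12 difference was -0.35 (adjusted p = 0.365) and was not called, while that of F11 was -0.95 (adjusted p = 0.027).

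The other vitamin K-dependent factors that could be tested did not pass. F2, prothrombin, stood at 14.51, 15.00 and 14.66 in controls and 14.58, 14.43 and 14.37 with GDF11 (-0.26 ± 0.18, adjusted p = 0.313). F10, which with factor V cuts prothrombin, had 12.48, 12.77 and 12.02 against 12.18, 12.16 and 11.97 (-0.32 ± 0.20, adjusted p = 0.277). F10 was called lower without control replicate 3 (-0.52, adjusted p = 0.0145). For the anticoagulant PROC, protein C, the values were 13.20, 13.42 and 13.002 against 13.20, 13.11 and 13.08 (-0.08 ± 0.16, adjusted p = 0.752). Its cofactor PROS1, protein S, had 11.87, 11.56 and 12.02 against 12.12, 11.97 and 12.36 (0.34 ± 0.18, adjusted p = 0.198). Groups overlapped for each of these 4 genes. PROZ (-0.20), F5 (-0.20) and the carrier subunit of factor XIII, F13B (0.15), did not pass either (adjusted p 0.329 to 0.479). F9, the haemophilia B factor, was below the filter at 5.52 to 5.77.

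The largest decrease was that of LEAP2, which was only counted with the acute phase group. LEAP2 (ENSG00000164406.8), a liver peptide that blocks the ghrelin receptor, stood at 9.54, 9.61 and 9.07 in controls and at 6.88, 7.22 and 7.18 with GDF11. The lowest control lay far above the highest GDF11 library, the difference was -2.32 ± 0.19 (SE, adjusted p = 6.88e-05), and mean normalised reads were 600.5 in controls and 60.9 with GDF11, 9.86 times as many in controls. SAA4, the serum amyloid A that the liver makes without inflammation, was at 12.18, 11.85 and 11.27 in controls and 10.19, 10.26 and 10.10 with GDF11, a difference of -1.59 ± 0.22 (adjusted p = 0.0014) and 3.28 times as many reads in controls. The orosomucoids ORM1 and ORM2, near-identical copies between which reads may be split, did not pass. ORM1 had 15.31, 15.45 and 14.63 against 15.15, 15.28 and 14.91 (-0.02 ± 0.24, adjusted p = 0.965). For ORM2 the difference was -0.40 ± 0.26 (adjusted p = 0.307), and without control replicate 3 it was called at -0.71 (adjusted p = 0.00564). The classical inflammatory acute phase genes were near or at the lowest value: CRP, C-reactive protein, at 5.52 in all 6 libraries, SAA1 at 5.52 in 5 libraries and 5.72 in GDF11 replicate 3, SAA2, its near-identical copy, at 5.82 to 6.14, and the lipopolysaccharide-binding LBP at 5.91 to 6.18. These 4 were not tested.

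Members within 500 kb of each other formed 6 clusters of 3 or more, which held 21 of the 47 genes (positions from RefSeq GRCh38.p14, matched by symbol) and are given here by their calls, with no test between neighbours. In the serpin cluster (chr14:94304248-94624053) SERPINA6 fell, SERPINA5 rose, and SERPINA1, SERPINA4 and SERPINA3 between or beside them did not pass. On chromosome 3 (chr3:186613060-186744410) AHSG, FETUB and KNG1 fell while HRG, which lies between FETUB and KNG1 and was barely detected, did not pass. F7 fell and its neighbours F10 and PROZ did not pass (chr13:113105791-113172386). In the SAA cluster (chr11:18231355-18269967) SAA4 fell, and SAA2 and SAA1 were too low to test. None of ITIH1, ITIH3 and ITIH4 (chr3:52777599-52830672) passed, nor did AMBP, ORM1 or ORM2 (chr9:114060127-114333251).

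**Figure D2:**
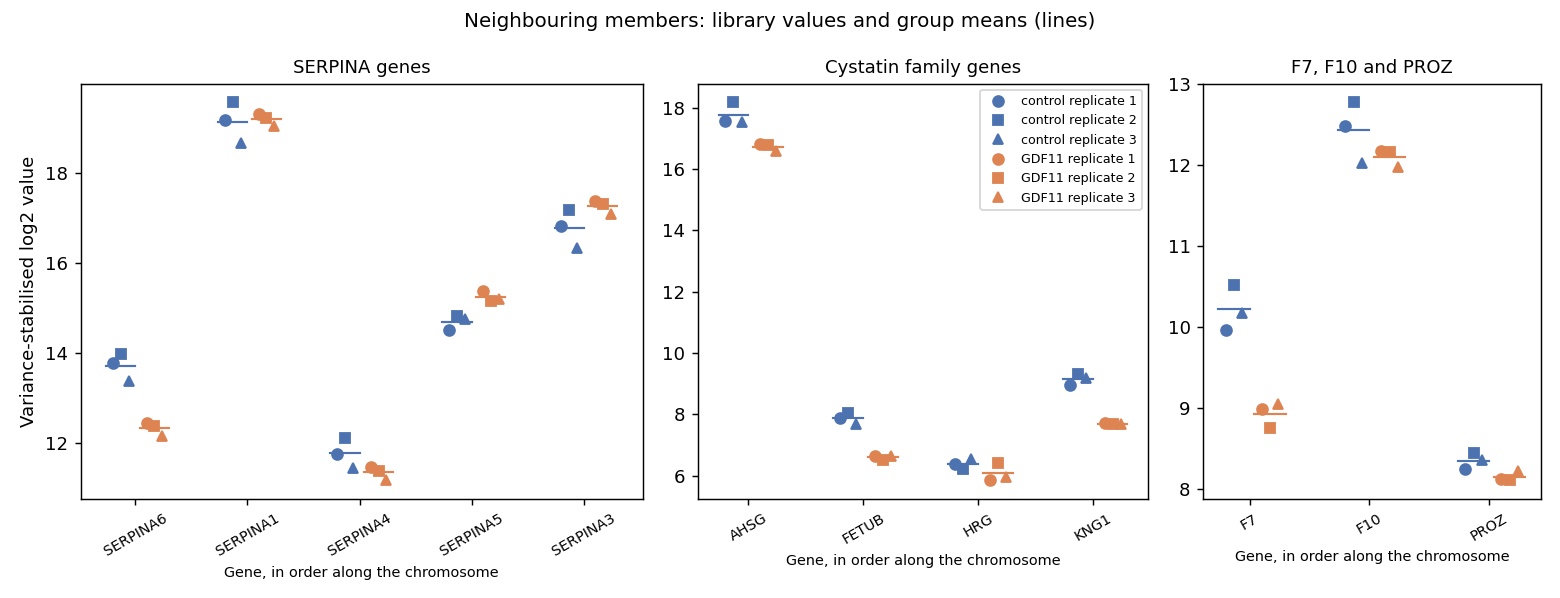
Variance-stabilised log2 values (y axis) of neighbouring members in chromosome order (x axis) for the serpin, cystatin family and F7 clusters; marks are libraries, blue for control and orange for GDF11, and short lines are the means of 3. SERPINA6 falls and SERPINA5 rises within 1 cluster, and F7 falls beside F10 and PROZ, which did not pass.

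Levels were compared between genes as normalised reads per kb of coding length. SERPINA1 ranked 1 of the 47 in both groups, at 472042 in controls and 476755 with GDF11. In controls AHSG, TF, ALB, AMBP and SERPINA3 followed, and with GDF11 TF, SERPINA3, AHSG, AMBP and ALB. RBP4 went from rank 7 to rank 13 and LEAP2 from 27 to 32, whereas VTN went from 19 to 12. The ranks are of group means, and no test was made of them.

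**Figure D3:**
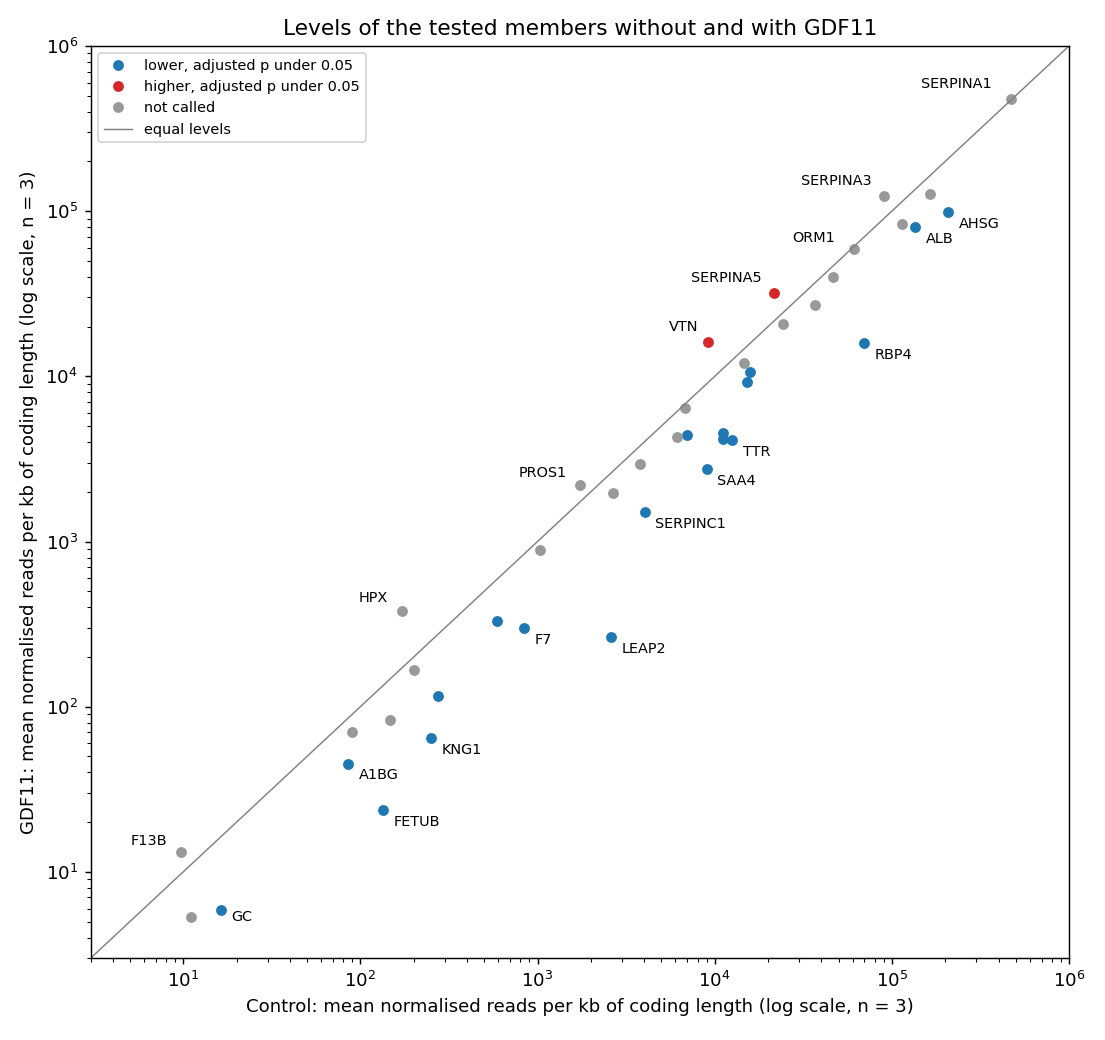
Mean normalised reads per kb of coding length of each tested member in controls (x axis, log scale) and with GDF11 (y axis, log scale), each a mean of 3 libraries, with the line of equal levels. LEAP2, FETUB and RBP4 lie far below the line, SERPINA1 on it, and VTN and SERPINA5 above it.

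As a share of all back-transformed reads, the 47 genes together held 3.684%, 4.503% and 4.385% of control libraries and 4.197%, 3.752% and 3.857% of GDF11 libraries. The groups overlapped. The carriers held 1.328%, 1.56% and 1.795% in controls and 1.238%, 1.095% and 1.194% with GDF11, without overlap. The cystatin family with vitronectin held 0.377% to 0.531% against 0.265% to 0.303%, also without overlap. AHSG made up most of that sum, with mean reads of 227251 in controls and 109104 with GDF11. VTN rose within it, from 13173 to 23248 mean reads. The protease inhibitors, led by SERPINA1, held 1.758% to 2.179% and 2.157% to 2.436%, which overlapped, as did the coagulation factors and the acute phase group.

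**Figure D4:**
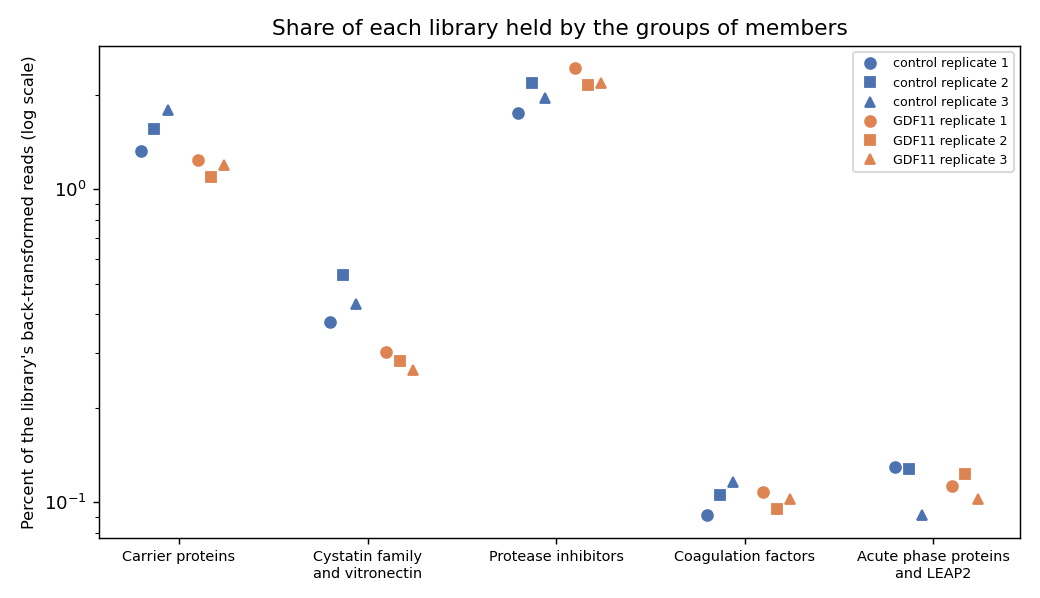
Percent of each library's back-transformed reads held by each group of members (y axis, log scale); marks are libraries, blue for control and orange for GDF11. Carriers and the cystatin family with vitronectin are lower in every GDF11 library than in any control, and the other 3 groups overlap. The sum of the cystatin family with vitronectin is mostly AHSG, and VTN itself rose.

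Other genes of the same pathways were read from lists that hold no member. Their counts stand beside 10.8% of all tested genes that fell and 11.7% that rose. Of 22 further coagulation and fibrinolysis genes 19 were tested, 6 rose and 6 fell, with a median of -0.26. SERPINE2, protease nexin-1, rose by 2.86 ± 0.23 (SE) and PLAUR, the urokinase receptor, by 1.83 ± 0.14, while FGG, the fibrinogen gamma chain, fell by 2.03 on the log2 scale (SE 0.16). Those that rose also included F3, the tissue factor that activates F7, TFPI2 and PLAU, and the others that fell were FGA, FGB, SERPINF2, CPB2 and VWF, named after their values were seen. Among 8 genes of vitamin K use and factor transport, FURIN, the convertase that cuts many proproteins, rose by 3.07 ± 0.17 and NQO1, a quinone reductase, fell by 0.91 (SE 0.18). GGCX, the gamma-carboxylase that the vitamin K-dependent factors need, differed by -0.02 (adjusted p = 0.928). Of 20 further plasma proteins 18 were tested, 12 fell and none rose, with a median of -0.62. CPN2 and CPN1, the subunits of carboxypeptidase N, fell (-2.13 ± 0.17 and -1.75 ± 0.21, SE), as did SHBG, the sex hormone carrier (-1.39 ± 0.22).

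Among 22 genes of acute phase control 4 rose and 3 fell, with a median of 0.16, against 11.7% and 10.8% of all tested genes. SOCS3, a feedback inhibitor of interleukin-6 signalling, rose by 0.85 ± 0.14 (SE) and the kinase JAK1 by 1.02 ± 0.19, while CEBPD and CEBPB, C/EBP factors of the acute phase, fell by 0.75 (SE 0.15) and 0.76 (SE 0.18). Of 20 liver transcription factors 8 fell and 1, TBX3, rose, with a median of -0.44. The bile acid receptor NR1H4 fell by 1.57 (SE 0.17), ONECUT1 by 0.93 (SE 0.18), ONECUT2 by 0.94 (SE 0.20) and FOXA2 by 0.83 (SE 0.18). Of the factors whose letters are marked in the promoters above, HNF4A (-0.46, adjusted p = 0.0536) and CEBPA (-0.54, adjusted p = 0.0562) did not pass, while FOXA2 fell as given. Of 31 genes for entry into the secretory pathway 28 did not pass, 2 fell and 1 rose, with a median of -0.14. TRAM1, at the translocation channel, rose by 1.46, and SEC11C and SPCS1, of the signal peptidase, fell by 0.87 and 0.55.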

How the data were processed

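Total RNA of 3 control and 3 GDF11-treated HepG2 cultures was sequenced as single 75-base reads of directional libraries made from 250 ng of RNA, per the labels' protocols. The authors deposited 1 table of log2 values, named as variance-stabilised. GRCh38, DESeq2, Salmon 1.2.1 and Trimmomatic are named, per the submitters' processing notes, while the labels' protocols name STAR 2.6 and hg19; the sources used here do not give which made these values. Reads were calculated back from the log2 values, and of values above 0 and under 20 reads 71.5% to 73.8% lay within 0.01 of a whole multiple of the library's step (0.836 to 1.2075 normalised reads, the step with the highest share), so no count test was run. Genes with a mean at least 0.5 above the lowest value entered limma 3.58.1 (R 4.3.3; lmFit, then eBayes with a trend in the mean; two-sided, no covariate), with Benjamini-Hochberg adjustment over all 18723 tested genes and a call at an adjusted p under 0.05. The fit was tested on simulated data. P-values set each difference against the spread within the control and GDF11 groups of these 6 libraries, with variances moderated over all tested genes by eBayes.

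Symbols were matched for 96.9% of IDs, with positions and promoters from RefSeq GRCh38.p14 and coding lengths from the canonical transcripts of GENCODE. The members and lists were chosen with earlier results of these data known. Values were given for the 10 called members with the lowest differences and the 10 with the highest, for a set of well-known members whatever their result, and for up to 4 genes of each other list with the lowest p, among others named as such; some genes of these lists are counted but not reported here. Alternatives were other filters, normalization, variance settings, covariates, thresholds and leaving out each library.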

Additional observations from a re-analysis of the deposited data

How the results depend on the processing

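Of the 21 called members, 10 kept their call under all 16 alternatives: TTR, HP, RBP4, SERPINA6, FETUB, KNG1, SERPINC1, F7, SAA4 and LEAP2. Against 19 members lower and 2 higher, the counts were 12 lower with RNA integrity as a covariate, 10 lower and 0 higher at an adjusted p under 0.01, and 1 higher with no filter on low values. Leaving out each library in turn gave 12 (without GDF11 replicate 3) to 24 (without control replicate 3) lower members, and 0 to 2 higher members. Over all tested genes, against 2017 lower and 2185 higher, these fits gave 945 to 3990 lower and 1364 to 3673 higher, library weights 4554 and 4473, the covariate 721 and 1149, and the stricter threshold 791 and 1170. With the replicate block 3306 genes and 20 members were lower and 3 members higher, HPX (adjusted p = 0.0271) among them. ITIH1 was then called lower (adjusted p = 0.0248). The deviations of same-numbered libraries correlated at -0.088, 0.375 and 0.478, and those of libraries with different numbers at -0.47 to 0.25. These values do not settle whether the numbers mark pairs, and the fit reported used none.

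Changes of sign were limited to members that were not called in the fit reported. With RNA integrity as a covariate the differences were 0.007 for AMBP, 0.0812 for SERPINA4, 0.2218 for F10, 0.2175 for PROC, -0.0236 for PROS1, 0.6098 for ORM1 and 0.3049 for ORM2. With quantile normalization they were 0.2506 for A2M, 0.205 for ITIH2, 0.0641 for PROC and 0.2302 for ORM1, and with library weights 0.1179 for A2M and 0.0287 for F5. Leaving out single libraries gave -0.1767 to 0.2693 for SERPINA1, -0.1816 to 0.0274 for PROC and -0.2702 to 0.1443 for ORM1. The cause of these shifts was not tested. With quantile normalization ALB was at -0.29 (adjusted p = 0.325) and CP at -0.48 (adjusted p = 0.158). The integrity number differed between the groups, and the covariate ended 8 calls. The differences of ALB (-0.74), A1BG (-0.54) and SERPINA5 (0.63) were then close to those reported, and those of GC (-0.24), SERPINA7 (-0.29), AHSG (-0.58), SERPIND1 (-0.44) and F12 (-0.35) were smaller. With 3 libraries a group, and members near the lowest value compressed, small differences of HRG, GC, F13B and the untested members were at the limit of detection.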
